A study of Mus musculus with 4 samples.

Results

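Scavenger receptors are surface and endosomal proteins by which macrophages bind modified lipoproteins, bacteria, apoptotic cells and polyanions. They were followed here through 8 mouse genes: Marco and Msr1 (class A), Cd36 and Scarb1 (class B), Cd68 (class D), Olr1 (class E), Stab1 (class H) and Cd163 (class I). The 8 were taken by name, as all probe sets whose platform annotation gives only that gene, and made up 16 probe sets among the 18193 genes measured. Msr1 had 4 probe sets, Cd36 and Scarb1 had 3 each, Marco had 2 and the other 4 genes had 1. Each probe set is a small family of array probes designed against the same RNA.

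The cells were macrophages grown from bone marrow of C57BL/6 mice over 5 days, in medium with 10% serum and 10% supernatant of L929 cells as a source of macrophage colony-stimulating factor. There were 4 groups with 1 array each: Hes1 and Hey1 double knockout (DKO) cells given 2 ng/ml of Escherichia coli lipopolysaccharide (LPS) for 3 h, untreated DKO cells, wild-type (WT) cells given the same LPS, and untreated WT cells. LPS signals through the receptor TLR4, and Hes1 and Hey1 encode transcriptional repressors downstream of Notch. Which cells carry the deletions, how they were made and whether RNA came from pooled animals are not given in the labels. The study looked for inflammatory genes regulated by Hes1 and Hey1. Because each group has 1 array, no difference could be set against a spread between replicates, no p-value is given, and precision is limited by the number of arrays.

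The class A receptors are trimers with a collagen-like stalk, and MARCO and SR-A, the product of Msr1, bind bacteria as well as modified low-density lipoprotein. CD36 takes up oxidised lipoprotein and long-chain fatty acids, and SR-BI, the product of Scarb1, exchanges cholesteryl esters with high-density lipoprotein. CD163 clears complexes of haemoglobin and haptoglobin, stabilin-1 (Stab1) carries cargo to endosomes, and CD68 lies mostly in late endosomes and lysosomes.

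Values are linear intensities in arbitrary units. A floor of 52.9 units, the median of all probe set values, was used as the limit below which values have no order. Where 1 of 2 arrays lay under it the difference is a bound, written as at least N-fold, and where both did no difference is given. A gene is represented by its probe set with the highest mean, and is called higher or lower from a 2-fold difference. Of the 8 genes, 5 lay above the floor on all 4 arrays, and Marco, Olr1 and Cd163 lay above it on 2 arrays each.

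Median intensities were 50.8, 51.0 and 50.9 units on the DKO LPS, DKO untreated and WT LPS arrays and 59.1 on the untreated WT array. The ratio of the 3′ to the 5′ control probe set, a sign of RNA integrity, was 0.840 to 0.877 for Gapdh and 1.01 to 1.11 for Actb. Bacterial control probe sets, a measure of background, reached 46.0 units on the WT LPS array and 16.9 to 32.7 on the others. All 8 macrophage markers on the array, among them Adgre1 and Csf1r, lay above the floor on every array. Of 44 markers of other cell types 36 lay under it on every array, and 6 lay above it on all arrays: Itgax, S100a8, Kdr, Kit, Cd34 and Gata2. Hes1 read 5.80 and 2.14 units in DKO cells with and without LPS, against 26.7 and 45.4 units in WT cells. Hey1 read 10.2 and 9.17 units in DKO cells, against 17.3 and 57.2 units in WT cells. Both genes were lowest on the DKO arrays, but of all 8 values only Hey1 in untreated WT cells passed the floor, so this is a weak check of the labels. All 12 LPS response genes chosen as controls, Tnf and Il6 among them, were at least 2-fold higher with LPS in both genotypes. Between genotypes with LPS, 2 of the 12, Il1b and Cxcl1, were 2.03-fold and 2.24-fold higher in DKO cells. None of the controls was at least 2-fold lower there. Without LPS, 3 of the 9 with a value, Socs3, Acod1 and Saa3, were at least 2-fold lower in DKO cells and none higher. The calls of Il1b, Acod1 and Socs3 were each lost under some other processing. Among all genes 0.845% were higher and 0.934% lower in DKO cells with LPS, and 0.466% and 0.984% without.

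**Figure D1:**
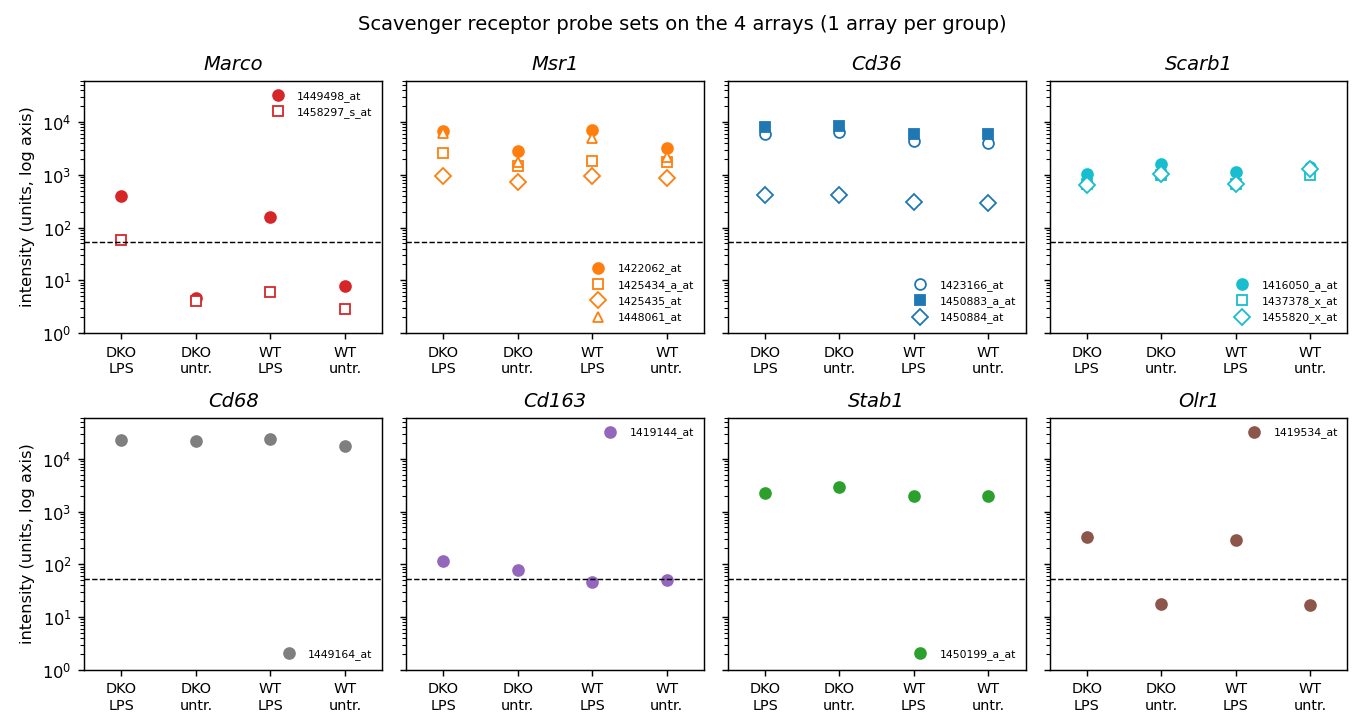
Intensity (units, log axis) of each of the 16 scavenger receptor probe sets on the 4 arrays, 1 array per group. Filled symbols mark the probe set that represents the gene, open symbols the others, and the dashed line is the floor of 52.9 units. By the filled symbols Marco and Olr1 are above the floor with LPS and under it without, and Cd163 is above it in DKO cells and under it in WT cells. The open Marco symbol is above the floor only in DKO cells with LPS.

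With LPS, 3 of the 8 genes were at least 2-fold higher in each genotype and they were the same 3: Marco, Olr1 and Msr1. None was at least 2-fold lower. Among all genes, 4.66% of 11241 were at least 2-fold higher with LPS in DKO cells and 4.77% at least 2-fold lower, and in WT cells 3.36% of 11491 were higher and 3.41% lower. The median log2 difference over the 8 receptors in DKO cells was 0.33, against -0.10 over all genes. In WT cells it was 0.43 over the 7 with a value, against -0.086 over all genes. That WT median is the value of Cd68. Cd36, Cd68, Scarb1, Stab1 and, in DKO cells, Cd163 were within 2-fold. The split over all genes depends on scaling: in WT cells 386 genes were higher and 392 lower, but 520 and 195 with array medians set equal, which moved the median of all genes to 0.12. In bulk RNA, fewer cells of a type and less RNA per cell cannot be told apart.

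Marco was above the floor with LPS only. Its brighter probe set (1449498_at) read 395 units in DKO cells with LPS and 158 in WT cells with LPS, against 4.58 in untreated DKO cells and 7.95 in untreated WT cells. Both LPS arrays were thus above the floor and both untreated arrays far under it, among the bacterial controls, whose medians were 7.43 to 10.9 units. Marco was at least 7.47-fold higher with LPS in DKO cells and at least 2.99-fold higher in WT cells, and the sizes of these bounds are set by the floor. Between the LPS arrays Marco was 2.50-fold higher in DKO cells, a difference measured above the floor on both sides, and it ranked 29 from the top among 11236 genes. The other Marco probe set (1458297_s_at), which may also read other transcripts, gave 57.9 units in DKO cells with LPS, against 6.01 in WT cells with LPS, and without LPS it gave 4.11 in DKO cells and 2.80 in WT cells. It was above the floor only on the DKO LPS array, by 1.09-fold, so it gives the same order of the LPS arrays and a bound of that size.

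Olr1 encodes the lectin-like receptor for oxidised low-density lipoprotein. Its single probe set read 334 units in DKO cells with LPS and 285 in WT cells with LPS, against 17.8 in untreated DKO cells and 17.0 in untreated WT cells. As for Marco, only the LPS arrays were above the floor. The increase with LPS was at least 6.32-fold in DKO cells and at least 5.39-fold in WT cells. Unlike Marco, Olr1 was nearly level between the LPS arrays, at 1.17-fold higher in DKO cells.

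Marco and Olr1, the receptors that crossed the floor with LPS, are shown with the 250 bases before their RefSeq transcription start, and Cd36, which was within 2-fold in every comparison, is shown beside them. The sequences are from RefSeq on GRCm38.p6, each on the minus strand and printed 5′ to 3′ in the direction of transcription, at chr1:120505025-120505274 for Marco, chr6:129507166-129507415 for Olr1 and chr5:17835897-17836146 for Cd36. Capitals mark matches on either strand to an NF-kB-like motif (GGG and CC with any 5 bases between them), an AP-1-like motif (TGANTCA), a PU.1-like motif (GAGGAA), the N-box that HES proteins bind (CACNAG) or a class C E-box (CACGNG).
Marco: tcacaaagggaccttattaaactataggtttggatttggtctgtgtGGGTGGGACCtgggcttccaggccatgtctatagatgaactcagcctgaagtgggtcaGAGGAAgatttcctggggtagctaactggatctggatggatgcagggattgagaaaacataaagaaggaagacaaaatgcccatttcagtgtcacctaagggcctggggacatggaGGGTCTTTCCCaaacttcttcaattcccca
Olr1: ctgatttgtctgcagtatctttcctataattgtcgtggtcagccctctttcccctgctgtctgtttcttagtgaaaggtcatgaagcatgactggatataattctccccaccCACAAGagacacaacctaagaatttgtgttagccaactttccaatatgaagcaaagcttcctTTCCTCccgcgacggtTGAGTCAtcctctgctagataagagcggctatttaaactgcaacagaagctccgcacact
Cd36: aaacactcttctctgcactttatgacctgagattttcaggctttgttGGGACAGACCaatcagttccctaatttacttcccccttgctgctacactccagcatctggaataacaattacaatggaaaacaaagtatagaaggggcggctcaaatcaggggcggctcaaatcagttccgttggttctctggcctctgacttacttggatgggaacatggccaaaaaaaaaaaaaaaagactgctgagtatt

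The Marco sequence held NF-kB-like matches at positions -204, -30 and -29 from the start, the last pair overlapping on opposite strands, and a PU.1-like match at -146. Olr1 held an AP-1-like match at -60, a PU.1-like match at -76 and an N-box at -138, and no NF-kB-like match in this window. Cd36 held an NF-kB-like match at -203 and, past the printed stretch, N-boxes at 23 and 38. The search covered 250 bases before to 50 after the start in 6 of the 8 genes, all but Msr1 and Scarb1. An NF-kB-like match was found in 3 of the 6, an N-box in 4, a PU.1-like match in 4 and an AP-1-like match in 2. Among all 32851 promoter windows of 300 bases the shares were 50.8%, 42.5%, 28.3% and 7.81% for these motifs. A class C E-box was found in 1 of the 6, Cd68, where it overlapped an N-box match, and in 27.5% of all windows. A canonical E-box (CANNTG) was found in all 6 and in 72.3% of all windows. These are letter matches and say nothing of binding.

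Msr1 was higher with LPS in both genotypes by its brightest probe set (1422062_at), which read 6776 units in DKO cells with LPS and 7007 in WT cells with LPS, against 2859 in untreated DKO cells and 3259 in untreated WT cells. The 2 LPS arrays lay above both untreated arrays. The increase was 2.37-fold in DKO cells and 2.15-fold in WT cells. The second brightest probe set (1448061_at), at 6111 and 4973 units in DKO and WT cells with LPS against 1722 and 2175 units without, gave 3.55-fold in DKO cells and 2.29-fold in WT cells.

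The other 2 Msr1 probe sets read a smaller LPS effect. One (1425434_a_at) gave 2577 units in DKO cells with LPS and 1856 in WT cells with LPS, against 1456 in untreated DKO cells and 1735 in untreated WT cells, or 1.77-fold in DKO cells and 1.07-fold in WT cells. The dimmest (1425435_at) gave 933 and 944 units in DKO and WT cells with LPS and 719 and 878 units without, or 1.30-fold in DKO cells and 1.08-fold in WT cells. All 4 probe sets thus read Msr1 higher with LPS in both genotypes, but 2 of 4 did not reach 2-fold in either. The log2 differences spanned 1.45 between probe sets in DKO cells and 1.10 in WT cells. The 2 brightest alone were 0.58 apart in DKO cells and 0.089 in WT cells. Over 4709 genes the 2 brightest probe sets of a gene were a median of 0.20 apart in DKO cells and 0.26 in WT cells, with 95% of genes within 0.80 and 0.90. Msr1 has several RefSeq transcripts, and which transcript each probe set reads was not analysed here.

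Between genotypes Msr1 was close to level. Its 4 probe sets gave log2 differences of -0.049 to 0.47 with LPS and -0.34 to -0.19 without, and with array medians set equal the untreated value of the brightest, -0.19, turned to 0.024. The LPS effect on Msr1 read larger in DKO than in WT cells by all 4 probe sets, by log2 differences of 0.14 for the brightest to 0.73, none of them reaching 2-fold, and with array medians set equal the value of the brightest turned to -0.069. Among all 9982 genes above the floor on every array, 1.31% had an LPS effect at least 2-fold larger in DKO cells and 0.721% at least 2-fold smaller, and none of the 5 receptors with a value was among them. The other 4 of these 5, Cd36, Cd68, Scarb1 and Stab1, had differences of -0.050, -0.31, -0.34 and -0.38. The untreated WT array, whose median stood apart, enters this measure. Marco, Olr1 and Cd163 have no value in it, because each was under the floor on 2 arrays.

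**Figure D2:**
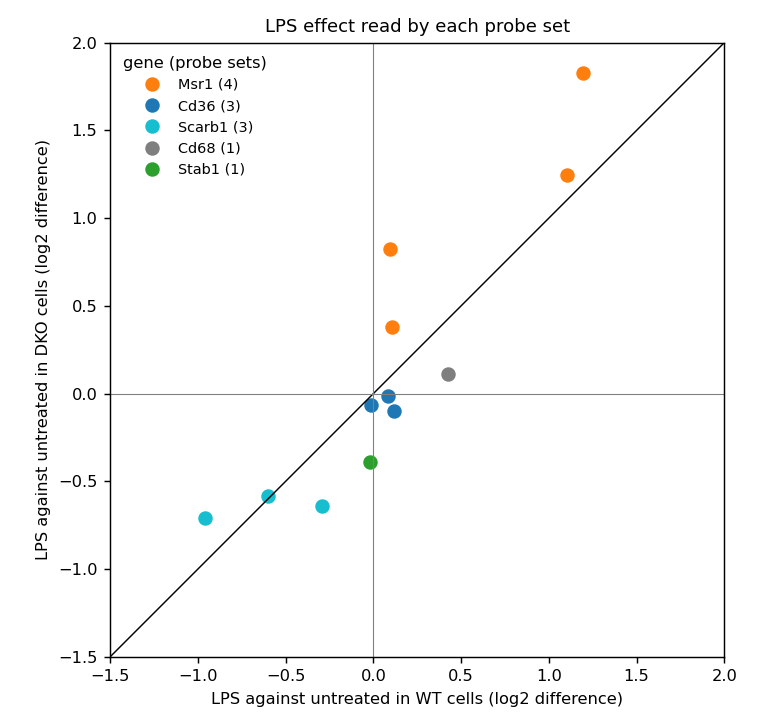
LPS effect (log2 difference, LPS minus untreated) read by each of the 12 receptor probe sets that stayed above the floor throughout, in DKO cells on the vertical axis and in WT cells on the horizontal axis; the line marks equal effects. The 4 Msr1 points lie above the line and far apart, the 3 Cd36 points lie at the origin and the 3 Scarb1 points lie below 0 on both axes.

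By its brightest probe set the profile of Msr1 over the 4 arrays was most like those of Txlnb, Nadk and Srxn1. The measure was the Euclidean distance between centred log2 values among 9982 genes (0.064, 0.082 and 0.090). The other Msr1 probe sets, which read LPS effects of other sizes, were not used here. Txlnb was dim, at 143 and 153 units in DKO and WT cells with LPS and 63.7 and 72.2 units without. Srxn1, which encodes sulfiredoxin, read 4486 units in DKO cells with LPS and 4388 in WT cells with LPS, against 1848 in untreated DKO cells and 2222 in untreated WT cells. Nadk, which encodes NAD kinase, read 6584 and 6509 units in DKO and WT cells with LPS and 2645 and 2925 units without. No other receptor was above the floor on all arrays and 2-fold apart between its highest and lowest array.

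Scarb1 was lower with LPS by every probe set and short of 2-fold by every one. Its brightest probe set read 1025 units in DKO cells with LPS and 1122 in WT cells with LPS, against 1596 in untreated DKO cells and 1376 in untreated WT cells. The log2 differences with LPS were -0.64 in DKO cells and -0.29 in WT cells. The other probe sets, both of a type that can cross-hybridise, gave -0.58 and -0.71 in DKO cells and -0.60 and -0.96 in WT cells. Which genotype had the larger decrease thus depended on the probe set.

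Cd36, the second class B receptor, was nearly level with LPS and higher in DKO cells. Its brightest probe set read 8099 units in DKO cells with LPS and 5867 in WT cells with LPS, against 8478 in untreated DKO cells and 5934 in untreated WT cells. Both DKO arrays lay above both WT arrays. The same held for the other probe sets, at 5949 and 6366 units on the DKO arrays (LPS and untreated) against 4435 and 4093 units on the WT arrays, and at 414 and 417 units against 306 and 289. Between genotypes the 3 probe sets gave log2 differences of 0.42 to 0.46 with LPS and 0.51 to 0.64 without, all under 2-fold. With LPS against untreated they gave -0.098 to -0.011 in DKO cells and -0.016 to 0.12 in WT cells. The probe sets share their RNA and are not replicates.

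Between the genotypes with LPS, 2 of the 8 receptors were at least 2-fold higher in DKO cells, Marco and Cd163, and none was at least 2-fold lower. Among all 11236 genes 0.845% were higher and 0.934% lower. The median over the 8 receptors was 0.21, against -0.040 over all genes. Without LPS none of the 6 receptors with a value passed 2-fold in either direction. Among all 11380 genes 0.466% were higher and 0.984% lower, or 97 and 43 genes in place of 53 and 112 with array medians set equal. The median over the 6 receptors was 0.40, against -0.017 over all genes, and with array medians set equal it was 0.56, against 0.19 over all genes. Of the 6, 5 were higher in DKO cells by their brightest probe set, as were 47.0% of all genes. The exception was Msr1, which turned with that scaling. Scarb1, at 0.21, was higher by that probe set only, and its other probe sets read -0.011 and -0.30. The median over 9 reference genes was 0.18 in this comparison. Comparisons of LPS and of genotype share arrays and are not independent of each other.

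**Figure D3:**
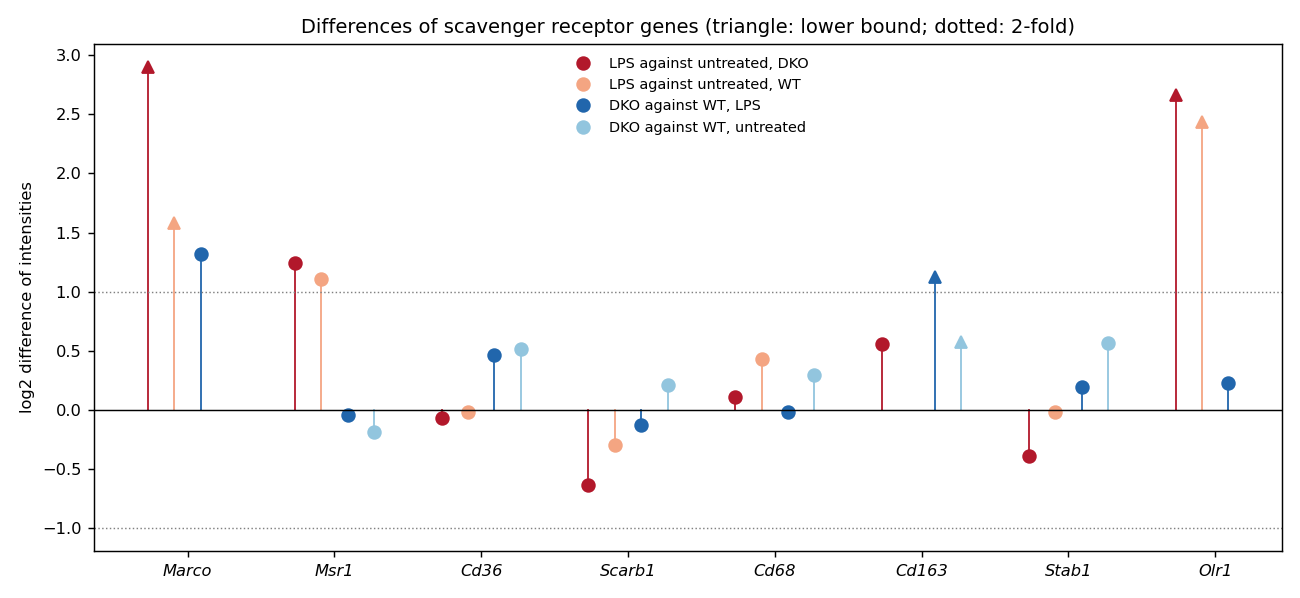
Log2 differences of the 8 receptor genes in the 4 comparisons of 2 arrays, each read by the gene's brightest probe set; triangles are lower bounds, dotted lines mark 2-fold, and a gene with both arrays under the floor has no point. Marco, Msr1 and Olr1 pass 2-fold with LPS in both genotypes, and only Marco and Cd163 pass it between genotypes.

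Cd163 was dim. Its probe set read 116 units in DKO cells with LPS and 46.3 in WT cells with LPS, against 78.6 in untreated DKO cells and 51.1 in untreated WT cells. Both DKO arrays were above the floor and both WT arrays just under it, and the WT LPS value was close to the highest bacterial control on that array, 46.0 units. Cd163 was at least 2.19-fold higher in DKO cells with LPS and at least 1.49-fold higher without, and 1.47-fold higher with LPS within DKO cells.

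Stab1 read 2216 units in DKO cells with LPS and 1940 in WT cells with LPS, against 2908 in untreated DKO cells and 1962 in untreated WT cells. The untreated DKO array was the highest and the 2 WT arrays were nearly equal. Stab1 was 1.48-fold higher in DKO cells without LPS and 1.14-fold higher with LPS. Its LPS difference was -0.39 in DKO cells and -0.017 in WT cells, all under 2-fold.

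Cd68 was the receptor with the brightest probe set, at 23159 units in DKO cells with LPS and 23520 in WT cells with LPS, against 21435 in untreated DKO cells and 17508 in untreated WT cells. The untreated WT array was the lowest and the other 3 were close together. Cd68 had a log2 difference of 0.29 in untreated DKO against untreated WT cells, beside a median of 0.18 over 9 reference genes, which ranged from -0.26 for Ywhaz to 0.35 for Sdha, and 0.33 for Lamp1, a lysosomal membrane protein of the same family. With LPS in WT cells the difference of Cd68 was 0.43, beside a reference median of 0.12, with a range of -0.27 for Ywhaz to 0.50 for Actb, and 0.29 for Lamp1. After quantile normalization the Cd68 difference with LPS in WT cells was 0.14 and the reference median -0.063. The part of the array in the Cd68 difference was not tested.

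**Figure D4:**
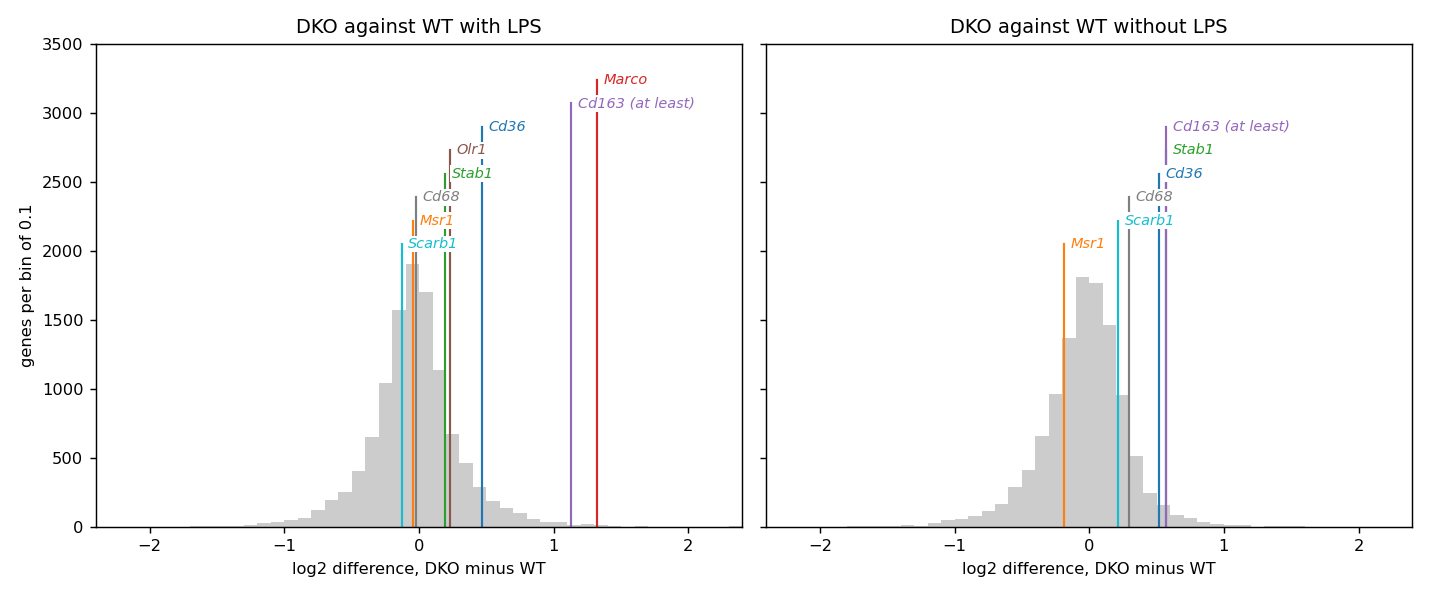
Log2 differences between DKO and WT cells with LPS (left) and without (right): grey bars count all genes with a value per bin of 0.1, with values past the ends in the end bins, and coloured lines mark the receptors, lower bounds named as such. With LPS, Marco at 1.32 and Cd163 at its bound of 1.13 stand far to the right, and without LPS Cd36, Stab1 and the bound of Cd163 lie at 0.51 to 0.57, the Stab1 line hidden behind that of Cd163.

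Of 5 markers of resident macrophages of liver and spleen, 3 lay under the floor on every array, Vsig4, Clec4f and Timd4. Cd5l, a secreted protein with scavenger receptor cysteine-rich domains, read 2985 units in DKO cells with LPS and 1782 in WT cells with LPS, against 3396 in untreated DKO cells and 1646 in untreated WT cells. It was thus higher on both DKO arrays, as were Cd36 and Cd163. The summed intensity of these 5 markers was 3272 and 3469 units in DKO cells with and without LPS, against 2114 and 1685 units in WT cells, and nearly all of it was Cd5l. The remaining marker, Spic, was above the floor with LPS only, at 190 units in DKO cells and 268 in WT cells, the other way round. The summed intensity of 5 progenitor markers was 508 and 1509 units in DKO cells with and without LPS, against 872 and 1848 units in WT cells. Within that list 3 markers were above the floor on every array, Sox4 on the untreated arrays only and Myb on none, and Cd34 read 229 and 361 units in DKO cells against 552 and 876 units in WT cells. Without Cd34 the sums were 279 and 1148 units in DKO cells with and without LPS, against 320 and 973 units in WT cells. That left the DKO sum somewhat lower with LPS and higher without. Sox4 read 888 units in untreated DKO cells against 711 in untreated WT cells. The part of these cell states in the receptor differences was not tested.

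Of 20 other scavenger receptors and related lectins, 12 had a value in the LPS comparisons. Cxcl16, a transmembrane chemokine that also binds oxidised lipoprotein, was the only one at least 2-fold higher with LPS, by 2.27-fold in DKO cells and 2.12-fold in WT cells. The shares of all genes that were at least 2-fold higher were 4.66% and 3.36%. Colec12, a class A relative with a collagen-like stalk, read 125 units in DKO cells with LPS and 102 in WT cells with LPS, against 220 in untreated DKO cells and 352 in untreated WT cells. It was past 2-fold in WT cells (log2 difference -1.79) and short of it in DKO cells (-0.81). The list median was -0.23 in DKO cells and 0.073 in WT cells, against -0.10 and -0.086 over all genes, and the WT value turned to -0.001 after quantile normalization. Scara3, Scara5 and Stab2 lay under the floor on every array.

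Between genotypes Cd207, the C-type lectin langerin, was at least 2-fold lower in DKO cells with LPS, at 499 against 1330 units. Without LPS it read 632 against 1112 units, short of 2-fold. Cd5l was 2.06-fold higher in DKO cells without LPS and 1.67-fold higher with LPS. Mrc1, the mannose receptor, read 2791 units in DKO cells with LPS and 1773 in WT cells with LPS, against 3380 in untreated DKO cells and 1966 in untreated WT cells. The rest of the list with a value was within 2-fold in both genotype comparisons. Among all genes 0.845% were higher and 0.934% lower in DKO cells with LPS, and 0.466% and 0.984% without. The list median was 0.086 with LPS and 0.25 without, against -0.040 and -0.017 over all genes. Over 9 reference genes it was 0.009 and 0.18.

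Genes of lipoprotein lipid handling gave 2 of 17 higher and 1 lower with LPS in either genotype. The shares over all genes were 4.66% higher and 4.77% lower in DKO cells, and 3.36% and 3.41% in WT cells. Abca1, which exports cholesterol, was 2.67-fold higher in DKO cells and 2.98-fold higher in WT cells, and the caveolin gene Cav1 3.45-fold and 2.46-fold higher. Abcg1, another cholesterol exporter, had log2 differences of -1.23 in DKO cells and -1.19 in WT cells, the second -0.98 with array medians set equal. Between genotypes Pltp, the phospholipid transfer protein gene, was higher in DKO cells by 2.41-fold with LPS, at 12920 against 5357 units, and by 2.20-fold without, at 13416 against 6088 units. Cav1 had a log2 difference of -1.01 in untreated DKO against WT cells, at the threshold, and -0.80 with array medians set equal. With shared probe sets left out Cav1 was not measured. Among all genes 0.845% were higher and 0.934% lower in DKO cells with LPS, and 0.466% and 0.984% without. The list median between genotypes was -0.001 with LPS and 0.24 without, beside 0.009 and 0.18 over 9 reference genes. The list median with LPS was -0.058 in DKO cells and 0.054 in WT cells, the second turning to -0.18 after quantile normalization.

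**Figure D5:**
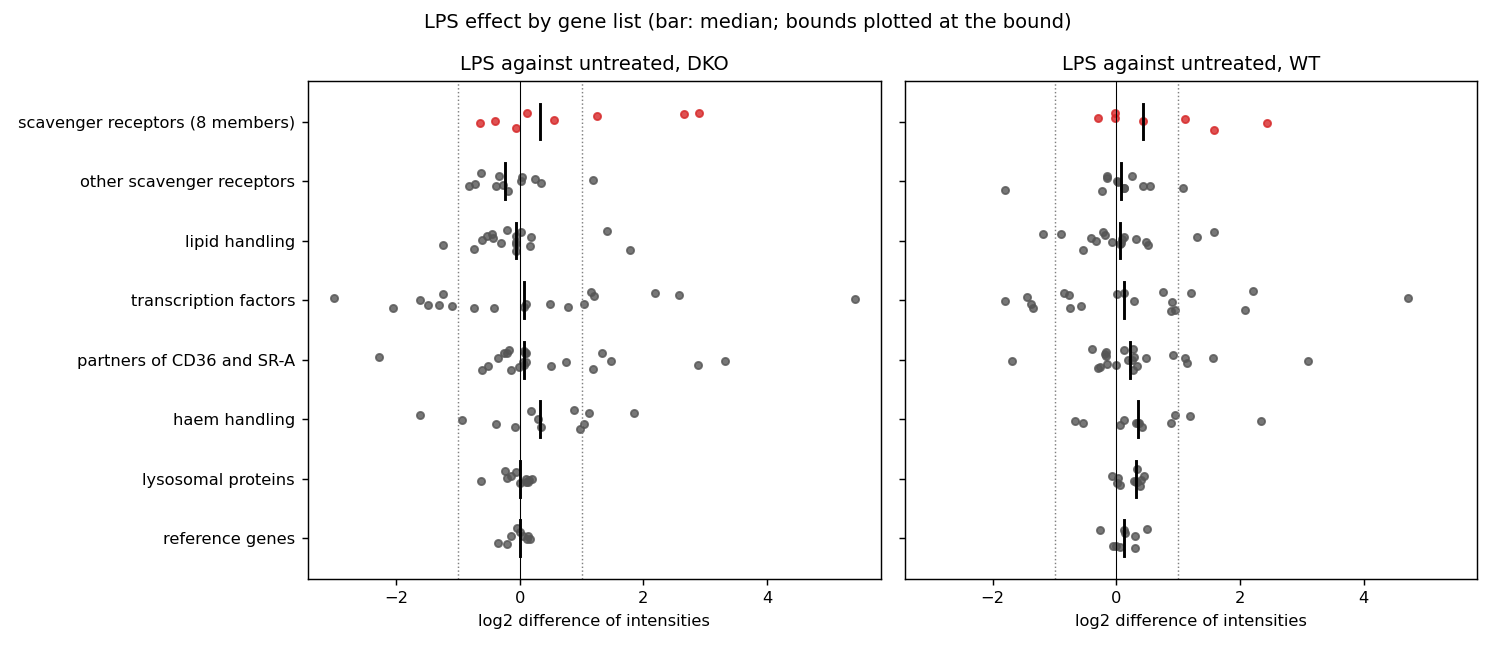
LPS effect (log2 difference, LPS minus untreated) of each gene with a value, in DKO cells (left) and WT cells (right), for the 8 receptors in red and for 7 other gene lists in grey; black bars are medians, dotted lines mark 2-fold and bounds are plotted at the bound. The transcription factors spread widest, while all lysosomal and reference genes lie within 2-fold.

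Transcription factors known to act on scavenger receptor genes moved in both directions with LPS: 6 of 19 were higher and 7 lower in DKO cells, and 4 were higher and 4 lower in WT cells. With array medians set equal the WT counts were 7 higher and 4 lower, and the DKO counts did not change. The shares over all genes, as reported, were 4.66% higher and 4.77% lower in DKO cells, and 3.36% and 3.41% in WT cells. Ets2, which acts on the human MSR1 promoter, was 42.6-fold higher in DKO cells and 26.3-fold higher in WT cells. Nfe2l2, which encodes the antioxidant regulator NRF2, read 20082 units in DKO cells with LPS and 16496 in WT cells with LPS, against 9792 in untreated DKO cells and 8569 in untreated WT cells. It was close to 2-fold in both genotypes, with 2.05-fold in DKO cells and 1.93-fold in WT cells, and its DKO call was lost after quantile normalization and after loess. Pparg, an activator of Cd36, read 188 units in DKO cells with LPS and 273 in WT cells with LPS, against 527 in untreated DKO cells and 492 in untreated WT cells.

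The Pparg difference with LPS was -1.48 in DKO cells and -0.85 in WT cells. With shared probe sets left out Pparg was not measured. The Cd36 probe sets stayed within 0.12 of 0 in both genotypes, and a link between Pparg and Cd36 was not tested. The log2 difference of Jun was -1.61 in DKO cells and -0.75 in WT cells, and that of Klf4 -3.00 and -1.81. The other genes past 2-fold in both genotypes were Junb, Mitf and Tfec, which were higher, and Rxra, Maf and Cebpa, which were lower. The Rxra calls were lost with the median over its probe sets (-0.69 in DKO cells and -0.44 in WT cells). Cebpb was past 2-fold higher and Ppard past 2-fold lower in DKO cells and not in WT cells, and the difference between genotypes did not reach 2-fold for either. Between genotypes with LPS, 2 of the 19 passed 2-fold, Klf4 (-1.59) and Fos (-1.12), and without LPS none did. The share of all genes at least 2-fold lower with LPS was 0.934%.

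Among surface and kinase partners of CD36 and SR-A, 5 of 22 were higher and 1 lower with LPS in DKO cells, and 4 were higher and 1 lower in WT cells. The shares over all genes were 4.66% higher and 4.77% lower in DKO cells, and 3.36% and 3.41% in WT cells. Tlr2, a partner of CD36 in lipopeptide recognition, was 9.97-fold higher in DKO cells and 8.52-fold higher in WT cells. The kinase gene Src read 723 units in DKO cells with LPS and 679 in WT cells with LPS, against 98.2 in untreated DKO cells and 307 in untreated WT cells, a log2 difference between genotypes of -1.64 without LPS and 0.09 with it. Its LPS effect was 3.33-fold larger in DKO cells, and it was the one gene of the list past 2-fold in that measure. Both Src calls between genotypes were lost with the floor at the 65th percentile and with shared probe sets left out, where the untreated difference was -0.87 and -0.53 and the difference of LPS effects had no value. Cd14 and Fgr were at least 2-fold higher in both genotypes, and Syk in DKO cells. Mertk, an efferocytosis receptor, had log2 differences of -2.28 in DKO cells and -1.70 in WT cells. Between genotypes with LPS none of the 22 passed 2-fold, the largest differences being Tlr6 (0.69) and Itgam (0.41).

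Genes of haemoglobin uptake and haem handling, the pathway of CD163, gave 3 of 12 higher and 1 lower with LPS in DKO cells, and 2 higher and none lower in WT cells. With array medians set equal 4 of 12 were higher in each genotype. The shares over all genes, as reported, were 4.66% higher and 4.77% lower in DKO cells, and 3.36% and 3.41% in WT cells. Hmox1, which degrades haem, was 2.18-fold higher in DKO cells and 2.27-fold higher in WT cells. Spic, a transcription factor of iron-recycling macrophages, was at least 3.59-fold higher in DKO cells and at least 5.06-fold higher in WT cells, bounds that did not reach 2-fold with the floor at the 65th percentile. The iron exporter gene Slc40a1 had a log2 difference of -1.61 in DKO cells. Between genotypes none of the list passed 2-fold, with 12 values with LPS and 10 without. The largest differences with LPS were those of Hp, which encodes haptoglobin (0.61), and Spic (-0.49), and without LPS those of Slc40a1 (0.47) and Blvra, a biliverdin reductase gene (0.44). Of 11 lysosomal genes chosen beside Cd68 none passed 2-fold in any comparison. Among them Scarb2, a lysosomal relative of Cd36 and Scarb1, had the largest difference with LPS in DKO cells (-0.62) and between genotypes with LPS (-0.41).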

How the data were processed

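The members and gene lists were chosen with earlier results of these data known. RNA of 4 cell samples was labelled with biotin and hybridised to Affymetrix mouse arrays. The authors deposited 1 linear intensity per probe set, 45101 in all. From the values, each array has a trimmed mean (2% at either end) of 500.0 units. The summary method is not stated in these sources. Leaving out 64 control probe sets, 34945 had 1 gene in the platform annotation, 932 several and 9160 none listed. A RefSeq table of GRCm38.p6 gave current symbols for 34741 of these, matched on Entrez identifier. Of 140 list entries 127 matched a gene.

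Log2 differences were taken after setting values under the pooled median (52.9 units) to it, with no test. The difference of LPS effects used genes above that floor on all 4 arrays. The naming rule was all 8 members, each list gene past 2-fold or, with none, the 2 with the largest difference, and for Msr1 the 3 nearest profiles. Names it gave for LPS controls, reference and lysosomal genes and for differences of LPS effects are printed in part. Names given outside that rule, such as Mrc1, were chosen after their values were seen. The differences were tested on simulated arrays with changes planted in probe sets far above the floor. Dim genes such as Marco, Olr1 and Cd163 were not covered by these planted changes. Alternatives were 3 normalizations, 2 floors, an offset of 16 units, 3 choices of probe set and thresholds of 1.5-fold and 3-fold. Python 3.11.15, numpy 2.4.6, pandas 2.3.3, matplotlib 3.10.9, R 4.3.3 and limma 3.58.1 were used.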

Additional observations from a re-analysis of the deposited data

Results flagged for a closer look

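Scarb1 and Cd68 differed between the genotypes in opposite directions with and without LPS, and these differences were not tested. Scarb1 was at a log2 difference of -0.13 (DKO minus WT) with LPS and 0.21 without. Its other probe sets gave 0.011 and -0.052 with LPS and -0.011 and -0.30 without, so that the direction is not shared by the probe sets. Cd68 was at -0.022 with LPS and 0.29 without, beside medians of 0.009 and 0.18 over 9 reference genes. All of these are far under 2-fold.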

How the results depend on the processing

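No paired analysis was possible because each group has 1 array. Of 360 values of single receptors under an alternative, 339 kept their call and direction or moved by less than the median gap between 2 probe sets of a gene, and none past 2-fold changed sign. Part of this agreement was fixed in advance. The thresholds of 1.5-fold and 3-fold change no value, and the probe set with the highest single value was the reported one for all 8. Neither other floor moved the 5 receptors above the floor on all arrays. Marco between genotypes with LPS stayed at 1.24 to 1.46 over the 9 alternatives that keep the threshold. With the floor at the 65th percentile, receptors past 2-fold with LPS in WT cells numbered 1 in place of 3. Marco had no value there and the bound of Olr1 fell from 2.43 to 0.77. Those between genotypes with LPS numbered 1 in place of 2, as Cd163 had no value. The median LPS effect in DKO cells, also without Cd163, was 0.11, the value of Cd68. Taking the median over probe sets of a gene left 1 receptor past 2-fold with LPS in WT cells, since Msr1 stood at 0.80 and Marco at 0.63. At 3-fold the count was 1 there and 0 between genotypes with LPS. With array medians set equal, untreated DKO against WT values shifted upward, to 0.024 for Msr1, 0.73 for Cd36, 0.43 for Scarb1, 0.50 for Cd68 and 0.78 for Stab1. Leaving out shared probe sets gave median LPS effects of 0.90 in DKO and 1.10 in WT cells over 6 and 5 receptors. Scarb1 and Stab1, under 0 with LPS in both genotypes, have only shared probe sets and dropped out. The count past 2-fold stayed at 3 in each genotype, and 1.10 is the value of Msr1. Quantile normalization gave a median LPS effect of 0.14 in WT cells in place of 0.43. Both are the value of Cd68, the middle receptor, and why Cd68 moved was not tested. With no floor and an offset of 16 units, 1 receptor, Marco at 1.46, passed 2-fold in the difference of LPS effects. The median there was 0.045. Under that setting 7.07% of 18193 genes were at least 2-fold higher in this measure, against 1.31% as reported. The Marco value rests on untreated readings under the floor, which are taken here to have no order.

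Over all genes, 95 higher and 105 lower between genotypes with LPS became 326 and 318 with the floor at the 35th percentile, 37 and 37 at the 65th, 498 and 547 with the offset, 453 and 565 at 1.5-fold and 12 and 10 at 3-fold. Splits also moved with scaling: with LPS in DKO cells 524 and 536 became 611 and 401 after loess, and for the difference of LPS effects 131 and 72 became 82 and 171 with array medians set equal. Intensities near the bacterial controls limit Marco, Olr1 and Cd163, whose folds against arrays under the floor are bounds.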
